A study of Mus musculus with 5 samples.

Results

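The Cfap genes (cilia and flagella associated proteins) are a family by name rather than by descent: their symbols are Cfap followed by a number, and their products sit at many places in the shaft and base of the cilium. By that rule they were 29 of the 16347 genes in the deposited read counts. They were described in 1473 single cells of adult mouse ventricle, midbrain and spinal cord samples, which include cells of the oligodendrocyte lineage. A motile cilium is built on an axoneme, a ring of doublet microtubules around a central pair. Dynein arms slide the doublets, radial spokes and the central apparatus time the arms, and proteins inside the doublets stiffen them. Ependymal cells carry tufts of such cilia and move the cerebrospinal fluid, whereas cells of the subcommissural organ, at the front of the midbrain aqueduct, secrete SCO-spondin, the product of Sspo, into the same fluid.

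All mice were 3 months old. In the FoxJ1CreERT2 R26TdT line an inducible Cre sits under the promoter of Foxj1, a gene of cells that bear motile cilia, and tdTomato marks the cells in which it acted. The 10 animals of this line, 5 females and 5 males, gave 1 sample each of the lateral ventricles (240 cells), the third ventricle (245), midbrain aqueduct (547) and spinal cord (114). In the Nkx2-2Cre R26TrapC line Cre is driven by Nkx2-2, a gene of ventral neural progenitors, and 7 females gave 1 midbrain sample of 327 cells. No label named a Sox9 or Nfi allele in these mice or tied a cell to an animal. The title of the series concerns Sox9 and Nfi factors in the timing of neurogenesis and of ependymal maturation. Each sorted cell was a Smart-seq2 library of full-length cDNA without molecular identifiers, holding between 108417 and 7182157 reads, and 0 cells shared all their counts with another cell. The headings of the columns for the lateral and the third ventricle read Forebrain and Tanycytes, so their match to these samples rests on anatomy.

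Midbrain cells were split in order into Ccdc153-high cells (at least 1000 CPM, a gene's reads scaled to a common total of reads), Sspo-high cells (at least 500 CPM), Mog-high cells (at least 500 CPM) and the rest. Ccdc153 encodes a coiled-coil protein of motile cilia, so the split was itself made on a cilium gene, and Mog is a myelin gene of oligodendrocytes. The midbrain sample of the Foxj1 line held 317 Ccdc153-high cells (58.0%, 95% interval 53.7 to 62.1), 196 Sspo-high cells (35.8%, 31.8 to 40.0), 34 other cells and no Mog-high cell. The Nkx2-2 line sample held 19 Ccdc153-high cells, 12 Sspo-high cells, 243 Mog-high cells (74.3%) and 53 others. Median reads were 691446 in the Ccdc153-high and 757938 in the Sspo-high cells of the Foxj1 line.

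The fixed markers went with the split. The 5 ependymal markers Foxj1, Tmem212, Rarres2, Dynlrb2 and Pltp summed to 11985 CPM in Ccdc153-high and 1631 CPM in Sspo-high cells of the Foxj1 midbrain sample, with 0 of 5 at 0 in either. Within that list the Sspo-high cells held far less Rarres2 (17.4 against 2207 CPM), Pltp (267 against 4194 CPM) and Tmem212 (256 against 3568 CPM). Dynlrb2 stood at 673 against 1425 CPM. Foxj1, the master regulator of motile ciliogenesis, was the marker kept most, at 417 against 590 CPM. Spdef and Car3, which mark the subcommissural organ beside Sspo, stood at 1786 and 726 CPM in Sspo-high cells and at 78.5 and 69.6 CPM in Ccdc153-high cells. Astrocyte markers summed to 1483 CPM in Ccdc153-high and 269 CPM in Sspo-high cells. In the same order choroid plexus markers summed to 580 and 1028 CPM and mural markers to 203 and 3.42 CPM. The astrocyte list was lower through Gja1 (713 and 2.68 CPM), Aqp4 (428 and 10.6 CPM) and Agt (263 and 82.6 CPM). Slc1a2 (59.7 and 137 CPM) and Aldh1l1 (20.1 and 35.9 CPM) were higher in Sspo-high cells. The choroid plexus list was higher in Sspo-high cells through Ttr alone (37.5 and 795 CPM), while Folr1 (501 and 232 CPM), Clic6 (37.9 and 0.0306 CPM) and Kcne2 (3.24 and 0.722 CPM) were lower. The mural sums were nearly all Acta2 (202 and 1.55 CPM), and Pdgfrb stood at 0.555 and 1.88 CPM. In the Nkx2-2 line, where 74.3% of cells were Mog-high, 5 other oligodendrocyte markers summed to 5624 CPM in the Ccdc153-high and 4241 CPM in the Sspo-high cells, against 88.8 and 63.6 CPM in the same classes of the Foxj1 line. The part of these transcripts in the Cfap values of the Nkx2-2 line was not tested.

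Sspo-high cells kept the family. The 29 genes together took 7418 CPM in Sspo-high and 9848 CPM in Ccdc153-high cells of the Foxj1 midbrain sample, and 6478 and 9293 CPM in the same classes of the Nkx2-2 line. The whole lateral ventricle sample held 9199 CPM, that of the third ventricle 8499 CPM and that of the spinal cord 9132 CPM, whereas the Mog-high cells held 193 CPM. Each of the 29 genes passed a mean of 5 CPM over the 2 classes in both midbrain samples. In the Foxj1 line 0 of 29 stood under 10% of its Ccdc153-high level (3.98% of all genes did), 4 stood at least 2-fold lower (14.6% of all genes), 25 stood at 50% or more (85.4% of all genes) and 0 stood at least 2-fold higher (18% of all genes). The counts at least 2-fold lower and at 50% or more were near the share of all genes. The median was not: the median member stood at 71.0% of its Ccdc153-high level, with members from 28.3% to 134.9%, beside a median of 111.6% over all 11700 genes that passed the same filter. On the log2 scale the medians were -0.49 for the members and 0.16 for all genes.

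**Figure D1:**
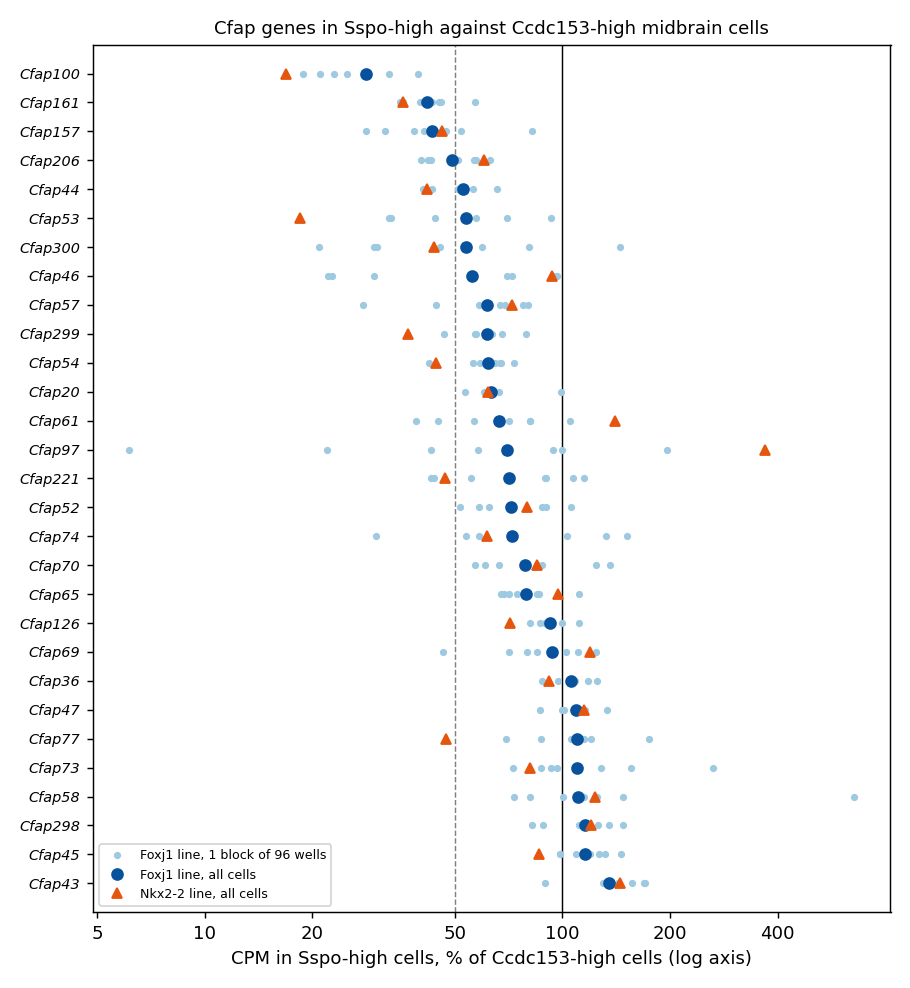
Level of each of the 29 Cfap genes in Sspo-high midbrain cells as a percentage of its level in Ccdc153-high cells (log axis): large circles are the Foxj1 line sample, small circles its 7 blocks of 96 cell numbers, triangles the Nkx2-2 line sample, the solid line 100% and the dashed line 50%. In the Foxj1 line 4 genes lie left of the dashed line, and of the 8 right of 100% only Cfap43, Cfap45 and Cfap58 also lie there with TMM factors, with the authors' normalized values and with the mean over cells. For Cfap74 the block at 0 reads in Sspo-high cells cannot be drawn on a log axis.

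Spread within the Foxj1 midbrain sample was read from 7 blocks of 96 consecutive cell numbers, each with 18 to 38 Sspo-high and 37 to 51 Ccdc153-high cells. Blocks share the sample and are not replicates. Of the 29 genes, 11 were lower in Sspo-high cells in every block (15.1% of all genes) and 0 were higher in every block (16.4% of all genes). For 5 genes, Cfap100, Cfap161, Cfap157, Cfap206 and Cfap54, the highest Sspo-high block lay under the lowest Ccdc153-high block (7.81% of all genes), and for 0 genes did the blocks separate in the other direction (6.89% of all genes). The median member's log2 ratio was between -0.76 and -0.30 in the 7 blocks, with an SD of 0.16 (n = 7). Block 6 stood apart in both classes: in this block 13 of the 29 genes had their lowest Ccdc153-high value and 9 their lowest Sspo-high value. Its cells had medians of 3952 and 4372 detected genes in the 2 classes, against 4712 to 5454 and 4928.5 to 5816.5 in the other blocks. The title of the sample holds 2 codes, and if cell numbers follow their order, numbers above 480 (blocks 6 and 7) belong to the second code; what the codes stand for is not given. Without any 1 block the number of members at least 2-fold lower was 3 to 5.

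With 1 sample per group no test between samples was possible, but the contrast of the classes exists in both midbrain samples, which came from different mice. edgeR's quasi-likelihood test on the 4 class sums, with the sample as a block and Benjamini-Hochberg adjustment over 11589 genes, called 0 of 29 members lower and 0 higher (0% of all genes in either direction). At an unadjusted p under 0.05 it found 10 members lower (7.58% of all genes) and 0 higher (4.25% of all genes). DESeq2 on the same sums called 15 members lower and 1 higher, against 16% and 13.9% of all genes. It was not tried on simulated counts. Its p-values rest on the same 4 sums, so however small they do not measure the spread between mice. With 1 residual degree of freedom the edgeR test had little power: on simulated counts over 11592 genes it recovered 6% of genes lowered 10-fold and 34% of genes raised 10-fold. No member therefore counts as changed by the main test, and the values below are levels in these cells.

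**Figure D2:**
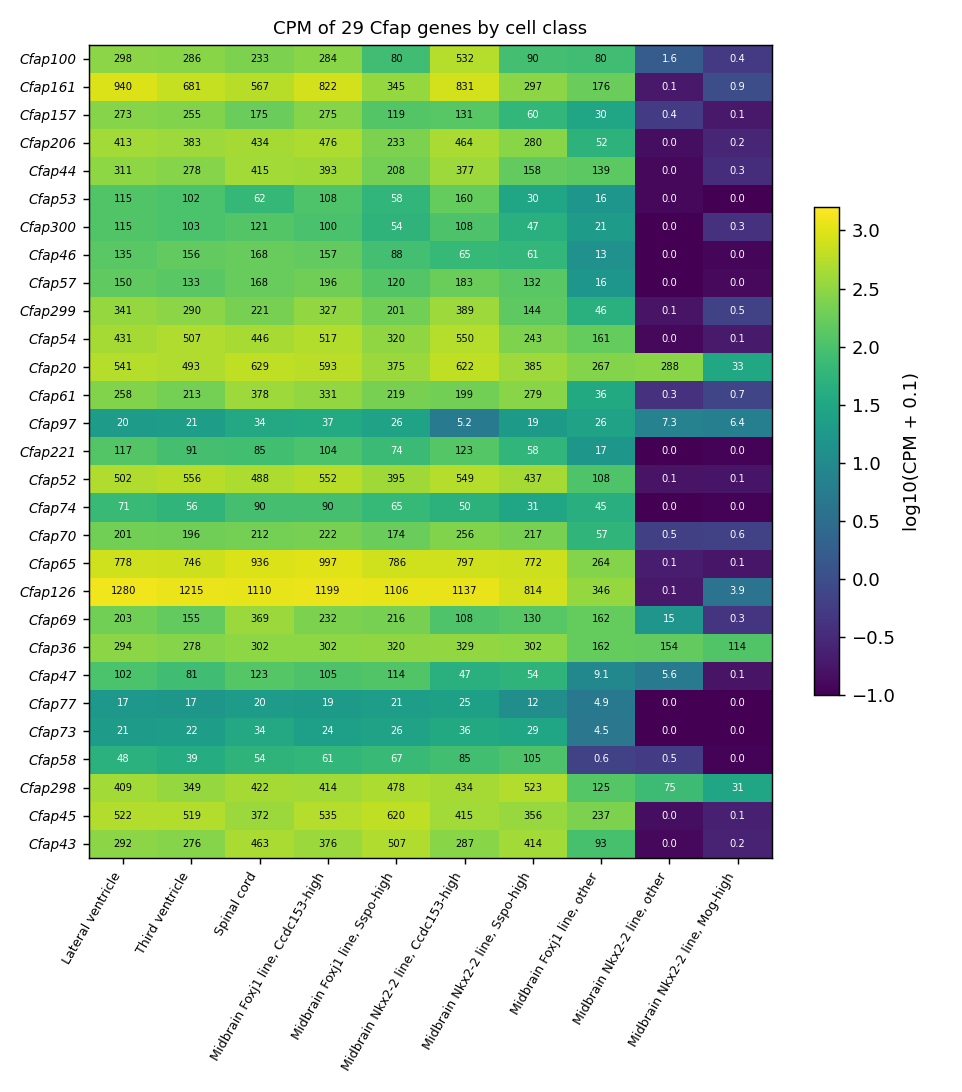
CPM of the 29 Cfap genes in the 10 cell classes, printed in each cell and coloured by log10 of CPM plus 0.1, ordered by the ratio of Sspo-high to Ccdc153-high cells in the Foxj1 line. The Mog-high column is near 0 except for Cfap36, Cfap20, Cfap298 and Cfap97, and the columns of Ccdc153-high and Sspo-high cells differ most in the top rows.

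Among the 5 members that tether or regulate dyneins, Cfap100 stood lowest in Sspo-high cells and Cfap43 highest, both within the whole family. Cfap100 (chromosome 6, 90403479 to 90428797, minus strand, GRCm38), which in Chlamydomonas belongs to a complex that modifies the inner dynein arms, stood at 298 CPM in lateral ventricle cells, 286 in those of the third ventricle, 233 in spinal cord cells and 284 in the Ccdc153-high midbrain cells (95% counting interval 282 to 286). In Sspo-high cells it stood at 80.2 CPM (78.9 to 81.6), and in the Nkx2-2 line at 532 CPM in Ccdc153-high and 89.5 CPM in Sspo-high cells. The Sspo-high values were the low ones in both samples, and the blocks did not overlap: 233 to 327 CPM in Ccdc153-high cells and 51.1 to 118 CPM in Sspo-high cells. The ratio was 28.3% in the Foxj1 line and 16.8% in the Nkx2-2 line. edgeR's fitted log2 difference was -2.34 (SE 0.33), with an adjusted p of 0.218, and DESeq2 gave -2.35 with an adjusted p of 4e-13. At 100000 reads per cell Cfap100 was read in 83.3% of Ccdc153-high cells (78.7 to 87.2), 50.5% of Sspo-high cells (43.3 to 57.7) and 0.823% of Mog-high cells (0.0998 to 2.94).

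Cfap43 (chromosome 19, 47736857 to 47919287, minus strand), which in Tetrahymena helps to tether an inner dynein arm and in mice is needed for the sperm flagellum, stood at 376 CPM in Ccdc153-high cells (374 to 379) and 507 CPM in Sspo-high cells (504 to 511). In the Nkx2-2 line it stood at 287 and 414 CPM. Sspo-high cells were the higher class in both samples and in 6 of 7 blocks, although the blocks overlapped (240 to 498 CPM against 384 to 648 CPM). The ratios were 134.9% and 144.4%, edgeR's fitted log2 difference was 0.34 (SE 0.24, adjusted p 0.651), and DESeq2 gave 0.32 with an adjusted p of 0.0272. After thinning it was read in 92.7% of Ccdc153-high, 97.4% of Sspo-high and 1.23% of Mog-high cells. Its partner in the same tether, Cfap44, went the other way: it stood at 393 CPM in Ccdc153-high and 208 CPM in Sspo-high cells of the Foxj1 line, and at 377 and 158 CPM in the Nkx2-2 line. Cfap44 was lower in all 7 blocks, with ratios of 52.9% and 41.8% in the 2 lines. Cfap57, which in Chlamydomonas regulates another inner arm, stood at 196 and 120 CPM (61.3%; 72.4% in the Nkx2-2 line). Cfap73, the partner of Cfap100 in the modifier complex, stood at 23.7 and 26.1 CPM (109.8%), but at 81.1% in the Nkx2-2 line and below 100% in the Foxj1 line when cells were averaged.

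The promoters of members from both ends of this range are shown because the levels of genes that share a cilium differed. Sequences are those of RefSeq on GRCm38.p6, from at most 250 bases before the annotated start, kept where no GENCODE vM21 exon lies. Capitals mark RFX half-sites (GTTGCC, or GGCAAC when read on the other strand) and forkhead cores (TGTTTAC, or GTAAACA), letters bound by the ciliogenic factors of the RFX and Foxj1 families. The 2 motifs do not overlap in these members. Cfap161 lies at chr7:83794881-83795089 (minus strand), Cfap44 at chr16:44394549-44394795 (plus), Cfap206 at chr4:34730207-34730456 (minus), Cfap58 at chr19:47937462-47937674 (plus) and Cfap43 at chr19:47837383-47837611 (minus). The RefSeq start of Cfap43 lies 81926 bases inside the GENCODE gene given above, so its window is not at the GENCODE 5′ end, whereas the other 4 starts lie within 41 bases of theirs. The first 3 are members at 41.9% to 52.9% of their Ccdc153-high level, and the last 2 stood above 100% by each scaling tried.
Cfap161: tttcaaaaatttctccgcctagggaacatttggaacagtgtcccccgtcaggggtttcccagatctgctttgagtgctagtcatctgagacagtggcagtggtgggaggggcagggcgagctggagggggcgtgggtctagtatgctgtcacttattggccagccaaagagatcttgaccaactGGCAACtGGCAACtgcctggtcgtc
Cfap44: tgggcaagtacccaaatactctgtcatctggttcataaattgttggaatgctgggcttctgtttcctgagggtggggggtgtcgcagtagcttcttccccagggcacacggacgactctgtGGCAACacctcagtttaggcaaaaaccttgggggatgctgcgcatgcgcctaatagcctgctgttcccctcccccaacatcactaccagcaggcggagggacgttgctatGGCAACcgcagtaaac
Cfap206: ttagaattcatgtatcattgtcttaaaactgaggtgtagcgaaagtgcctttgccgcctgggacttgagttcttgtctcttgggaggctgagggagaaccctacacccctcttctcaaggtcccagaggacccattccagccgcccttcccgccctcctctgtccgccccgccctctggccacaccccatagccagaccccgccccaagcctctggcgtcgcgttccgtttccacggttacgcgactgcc
Cfap58: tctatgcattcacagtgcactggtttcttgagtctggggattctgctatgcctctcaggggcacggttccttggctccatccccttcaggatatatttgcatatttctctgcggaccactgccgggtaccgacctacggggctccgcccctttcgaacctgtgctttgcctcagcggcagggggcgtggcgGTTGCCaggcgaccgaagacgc
Cfap43: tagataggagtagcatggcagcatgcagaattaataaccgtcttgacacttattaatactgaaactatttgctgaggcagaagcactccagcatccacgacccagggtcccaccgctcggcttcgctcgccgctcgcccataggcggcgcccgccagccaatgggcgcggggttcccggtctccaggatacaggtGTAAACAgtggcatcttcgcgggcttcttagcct

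Counted from the annotated start, the half-sites of Cfap161 in this stretch lie at -66 and -59, those of Cfap44 at -129 and -19, and that of Cfap58 at -59. The forkhead core of Cfap43 lies at -55, and Cfap206 holds neither set of letters. Of the 22 members with a RefSeq window of 250 bases before to 50 bases after the start, 9 (40.9%) held an RFX half-site on either strand, against 14.1% of 27025 genes. The 9 were Cfap100, Cfap161, Cfap20, Cfap298, Cfap300, Cfap44, Cfap46, Cfap58 and Cfap74, so the letters occurred in members at 28.3% and in members at 115.5% of their Ccdc153-high level. Forkhead cores stood in 2 of the 22 (9.09%), Cfap20 and Cfap43, against 4.05% of all genes. A match is a run of letters and not a measured binding site.

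The 7 genes that encode proteins of the doublet microtubule ran from 41.9% to 115.8%. Cfap161 (chromosome 7, 83774101 to 83794880, minus strand), which lies inside the doublet, stood at 940 CPM in lateral ventricle cells, 681 in those of the third ventricle, 567 in spinal cord cells, 822 in Ccdc153-high midbrain cells and 345 in Sspo-high cells. The Nkx2-2 line gave 831 and 297 CPM. Sspo-high cells were lowest throughout, with blocks of 269 to 420 CPM under blocks of 689 to 1073 CPM. The ratios were 41.9% and 35.8%, edgeR's fitted log2 difference was -1.51 (SE 0.24, adjusted p 0.24), and DESeq2's adjusted p was 1.06e-18. After thinning it was read in 98.7% of Ccdc153-high and 90.8% of Sspo-high cells.

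Cfap53, another protein inside the doublet, stood at 108 and 58.1 CPM (53.6%) in the Foxj1 line and at 160 and 29.6 CPM (18.5%) in the Nkx2-2 line, lower in all 7 blocks. It was read in 54.9% of Ccdc153-high, 30.6% of Sspo-high and none of the Mog-high cells after thinning. Cfap20, at the inner junction of the doublet, stood at 593 and 375 CPM (63.2%; 62.0% in the Nkx2-2 line) and was lower in all 7 blocks. Cfap52 stood at 552 and 395 CPM (71.6%), lower in 6 of 7 blocks. Cfap126, which in mice also acts at the base of multiciliated cells, stood at 1199 and 1106 CPM (92.3%; 71.5% in the Nkx2-2 line). Cfap77 stood at 19.4 and 21.3 CPM (109.7%) but at 24.7 and 11.7 CPM in the Nkx2-2 line, and by the authors' normalized values it was below 100%. Cfap45 stood at 535 and 620 CPM (115.8%), higher in 5 of 7 blocks, but at 415 and 356 CPM (85.9%) in the Nkx2-2 line. Blocks of both classes overlapped for each of these last 5 genes.

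The 2 members needed to assemble dynein arms, known from human primary ciliary dyskinesia, parted. Cfap300 stood at 100 and 53.8 CPM (53.7%) in the Foxj1 line and at 108 and 47.1 CPM (43.6%) in the Nkx2-2 line, and it was lower in 6 of 7 blocks. Cfap298 stood at 414 and 478 CPM (115.5%), and at 434 and 523 CPM (120.6%) in the Nkx2-2 line, with 5 of 7 blocks higher; by the authors' normalized values it was below 100%. In GENCODE vM21, 53.6% of the exon bases of Cfap298 are shared with 4930534H18Rik and Gm49727 on the opposite strand, so its reads cannot be told apart from theirs and its level is uncertain.

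Of the 2 radial spoke members, Cfap206 (chromosome 4, 34688559 to 34730206, minus strand), which sits at the base of a spoke in Tetrahymena and Chlamydomonas, stood at 413 CPM in lateral ventricle cells, 383 in those of the third ventricle, 434 in spinal cord cells, 476 in Ccdc153-high and 233 in Sspo-high midbrain cells. In the Nkx2-2 line it stood at 464 and 280 CPM. The Foxj1 blocks did not overlap (367 to 576 against 183 to 296 CPM), and the ratios were 49.0% and 60.3%. Cfap61, of the complex that links calmodulin to the spokes in Chlamydomonas, stood at 331 and 219 CPM (66.3%) in the Foxj1 line and at 199 and 279 CPM (139.9%) in the Nkx2-2 line.

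None of the 8 members of the central apparatus, which lies within the ring of doublets, stood 2-fold lower in the Foxj1 line. The 4 that in Chlamydomonas belong to the same projection of the central pair were among the lower ones. Cfap54 stood at 517 and 320 CPM (62.0%) with blocks that did not overlap (435 to 572 against 215 to 382 CPM), and at 44.2% in the Nkx2-2 line. Cfap46 stood at 157 and 87.9 CPM (56.0%), but its log2 ratio was -2.11 in the cells numbered above 480 against -0.84 over all cells, and the Nkx2-2 line gave 65.3 and 61.2 CPM (93.8%). Cfap221 stood at 104 and 73.9 CPM (71.0%; 46.9% in the Nkx2-2 line) and Cfap74 at 90.3 and 65.4 CPM (72.4%; 61.7%), with blocks of Cfap74 from 0 to 119 CPM in Sspo-high cells. The other 4 stayed nearer to 100%. Cfap65 stood at 997 and 786 CPM (78.9%; 96.9% in the Nkx2-2 line), Cfap70 at 222 and 174 CPM (78.7%; 85.0%) and Cfap69 at 232 and 216 CPM (93.2%; 119.5%). Cfap47 stood at 105 and 114 CPM (109.0%; 114.7%), below 100% once TMM factors were applied.

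The remaining 5 genes act at the ciliary base or have no role given here. Cfap157 (chromosome 2, 32777381 to 32784428, minus strand), a basal body protein needed for the mouse sperm flagellum, stood at 273 CPM in lateral ventricle cells, 255 in those of the third ventricle, 175 in spinal cord cells, 275 in Ccdc153-high and 119 in Sspo-high midbrain cells. The Nkx2-2 line gave 131 and 60.3 CPM, the ratios were 43.2% and 46.1%, and the Foxj1 blocks did not overlap (196 to 412 against 80.1 to 161 CPM). Cfap299 stood at 327 and 201 CPM (61.4%; 36.9% in the Nkx2-2 line), lower in all 7 blocks, and shares 19.1% of its exon bases with E030032P16Rik. Cfap97 was scarce, at 37.1 and 26.0 CPM (70.2%) with Sspo-high blocks from 0.597 to 56.8 CPM, and it stood at 5.21 and 19.3 CPM in the Nkx2-2 line. Cfap58, needed for the sperm flagellum in mice, stood at 61.0 and 67.4 CPM (110.5%; 123.6%), higher in 5 of 7 blocks. Its block ratios ran from 73.1% to 654.8%, and its Foxj1 log2 ratio ran from -0.07 to 0.93 over the alternatives. Cfap36, which binds the small GTPase ARL3, stood at 302 and 320 CPM (105.9%; 91.8%). It was below 100% under TMM, the authors' values and the mean over cells.

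Direction depended on scaling for the members near 100%. By CPM 8 of 29 (27.6%) stood above their Ccdc153-high level, beside 57.3% of all genes. With TMM factors, which moved every log2 ratio by -0.13, 6 did (20.7%), beside 51.4% of all genes. By the authors' normalized values 4 did (13.8%): Cfap43, Cfap45, Cfap47 and Cfap58. The number at least 2-fold lower was 4 by CPM (14.6% of all genes) and 7 by either of these scalings. The share of all genes at least 2-fold lower was not computed for these scalings, nor that above 100% for the authors' values. Whether the rise to 7 is particular to the members was thus not tested.

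Both midbrain samples put 18 members lower in Sspo-high cells (29.1% of all genes that passed in both) and 4 higher (41.3% of all genes). The 4 were Cfap43, Cfap47, Cfap58 and Cfap298, with the last of these and Cfap47 subject to the scaling above. The other 7 went in opposite directions (29.6% of all genes), and none of them passed 2-fold in both samples. The Nkx2-2 line had 10 members at least 2-fold lower (25.4% of all genes), 1 at least 2-fold higher (Cfap97; 31.9% of all genes), 19 at 50% or more (74.6% of all genes) and 0 under 10% (10.7% of all genes), with a median of 72.4%. Above 100% were 7 members (54.6% of all genes). It rested on 12 Sspo-high cells, and 1 of its 19 Ccdc153-high cells and 1 of its 12 Sspo-high cells held only 901 and 948 CPM of the 29 members; without these cells, under 1000 CPM, the count stayed at 10.

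Cell by cell, Sspo-high cells of the Foxj1 line held the family throughout. The CPM of the 29 members summed in each cell had a median of 9818 CPM in Ccdc153-high cells (lowest 4851, highest 14804) and 7256 CPM in Sspo-high cells (4122 to 11314) of the Foxj1 line, and 173 CPM in Mog-high cells (0 to 1677). All 196 Sspo-high cells of the Foxj1 line lay above the highest Mog-high cell, and the ranges of the 2 midbrain classes overlapped. The Mog-high cells came from the Nkx2-2 line sample alone, whose lowest Sspo-high cell held 948 CPM and so lay under the highest Mog-high cell. After thinning to 100000 reads the median number of the 29 members read per cell was 23 in Ccdc153-high, 21 in Sspo-high and 1 in Mog-high cells. The 34 other midbrain cells ranged from 104 to 11664 CPM, with 23 at or above 1000 CPM. In the Nkx2-2 line the medians were 9810.5 CPM in Ccdc153-high and 6543 CPM in Sspo-high cells.

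**Figure D3:**
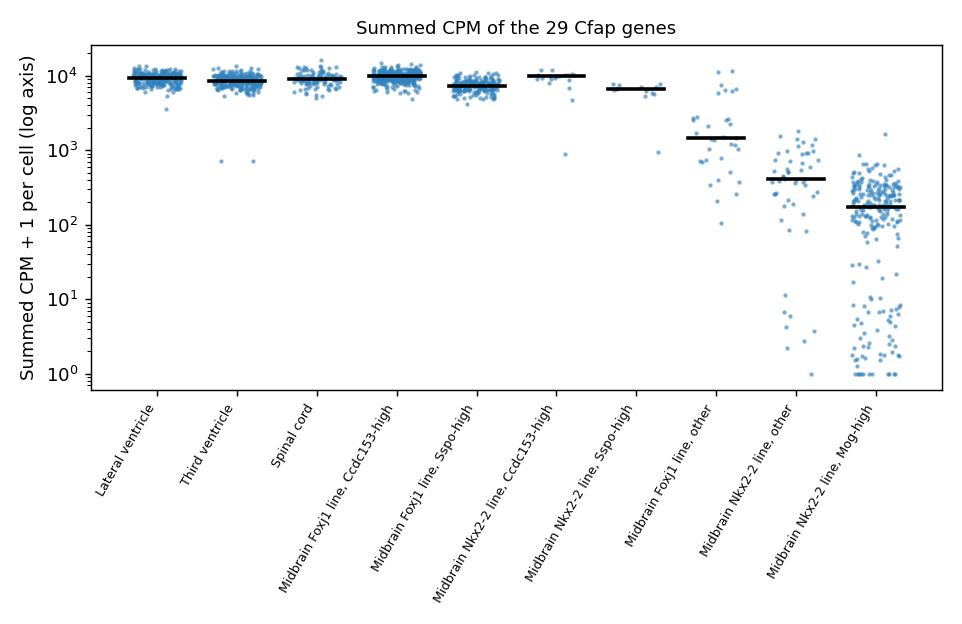
Summed CPM plus 1 of the 29 Cfap genes in each cell (1 point per cell, log axis) by class, with the median as a bar. Sspo-high cells of the Foxj1 line form 1 band around 7256 CPM, overlapping the band of Ccdc153-high cells around 9818 CPM and above the Mog-high cells, whose highest value is 1677 CPM.

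The summed level was much the same in Sspo-high cells with little and with more Ccdc153. Single members moved both ways when edgeR's fit over both midbrain samples kept only Sspo-high cells under 100 CPM of Ccdc153. Cfap157 went from a log2 difference of -1.30 to -2.20 and Cfap53 from -1.81 to -1.16. Cells with under 100 CPM of Ccdc153 (81 cells) summed to 7353 CPM of the 29 members, those with 100 to 300 CPM (52 cells) to 7426, those with 300 to 600 CPM (36 cells) to 7606 and those with 600 to 1000 CPM (27 cells) to 7345. Ccdc153 itself stood at 3583 CPM in Ccdc153-high and 235 CPM in Sspo-high cells. Just outside the Ccdc153 threshold, 13 midbrain cells between 800 and 1000 CPM summed to 6950.3 CPM. They were not all Sspo-high: the lowest held 2648 CPM of the members, under the lowest Sspo-high cell at 4122 CPM. The 6 Ccdc153-high midbrain cells with the least Ccdc153 summed to 8452 CPM. No midbrain cell without high Ccdc153 held between 250 and 1000 CPM of Sspo, so the Sspo threshold fell in a gap. Of the Ccdc153-high cells, 16 also held at least 500 CPM of Sspo, and these summed to 7924 CPM.

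In Mog-high oligodendrocyte-lineage cells 4 members stood at 5 CPM or more: Cfap36 at 114 CPM, Cfap20 at 32.8, Cfap298 at 31.0 and Cfap97 at 6.44. Of the other 25 the highest was Cfap126 at 3.91 CPM, and 24 of the 29 stood under 1 CPM. After thinning, Cfap36 was read in 59.7%, Cfap298 in 27.2%, Cfap20 in 25.5% and Cfap97 in 7.41% of Mog-high cells, whose median depth was 1362240 reads before thinning. Cfap126 was read in 5.35% of them and in 100% of Sspo-high cells, and the other 24 members in at most 4.53%. In the 53 other cells of the Nkx2-2 line Cfap20 stood at 288 CPM, Cfap36 at 154 and Cfap298 at 75.2.

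Levels of different genes can be compared only per length, here as CPM per kilobase of merged GENCODE exon, which 28 members have. In Ccdc153-high cells the order began with Cfap126 at 676, Cfap298 at 261 and Cfap161 at 258, followed by Cfap52 at 238 CPM per kilobase. In Sspo-high cells Cfap126 still led at 623, then Cfap298 at 301 and Cfap52 at 170, while Cfap161 stood seventh at 108 CPM per kilobase. The place of Cfap298 is uncertain in both classes, since 53.6% of its exon bases are shared with genes on the opposite strand. Cfap97 was last in both classes, at 7.20 and 5.05 CPM per kilobase.

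Across the 4 regions of the Foxj1 line, with the midbrain entered as its Ccdc153-high cells, 28 of 29 members stayed within 2-fold (33.4% of all genes exceeded 2-fold). The median of the highest over the lowest region was 1.44 for the members and 1.64 for all genes. Cfap69, a protein of the central apparatus, was the exception: lateral ventricle cells held 203 CPM, those of the third ventricle 155, those of the midbrain 232 and spinal cord cells 369, 2.38 times the lowest. Its 2 spinal cord blocks (332 and 391 CPM) lay above all 3 blocks of the third ventricle (108 to 209 CPM). Next came Cfap53, which was lowest in the spinal cord (61.9 CPM, against 115 in lateral ventricle, 102 in the third ventricle's and 108 in midbrain cells), and the scarce Cfap97 (20.3, 21.4, 37.1 and 34.2 CPM in lateral ventricle, the third ventricle, midbrain and spinal cord). Cfap61 stood at 258, 213, 331 and 378 CPM and Cfap43 at 292, 276, 376 and 463 CPM in the same order, both lowest in the third ventricle and highest in the spinal cord. Between highest and lowest region the blocks did not overlap for Cfap53, Cfap61 and Cfap43, and they overlapped for Cfap97. Other members separated as well, among them Cfap161, Cfap73 and Cfap157. The share of all genes that did so was not computed. With 2 blocks in the spinal cord and 3 in each ventricle sample, such separation is no test of a difference between regions.

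Of the 29 members 12 were highest in the spinal cord (35.6% of all genes) and 10 in the midbrain (20.9% of all genes). The lowest level of 15 lay in the third ventricle (22.4% of all genes) and that of 9 in spinal cord cells (35.6% of all genes). Against the 4 regions together, the Sspo-high cells stood under all of them for 16 members (28.8% of all genes), over all of them for 6 (38.3% of all genes) and within their range for 7. The 6 were Cfap36, Cfap43, Cfap45, Cfap58, Cfap77 and Cfap298, of which Cfap36, Cfap77 and Cfap298 depend on the scaling as above. As a proportion of the lowest region Cfap100 stood furthest below, at 80.2 CPM under a lowest region of 233 CPM.

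**Figure D4:**
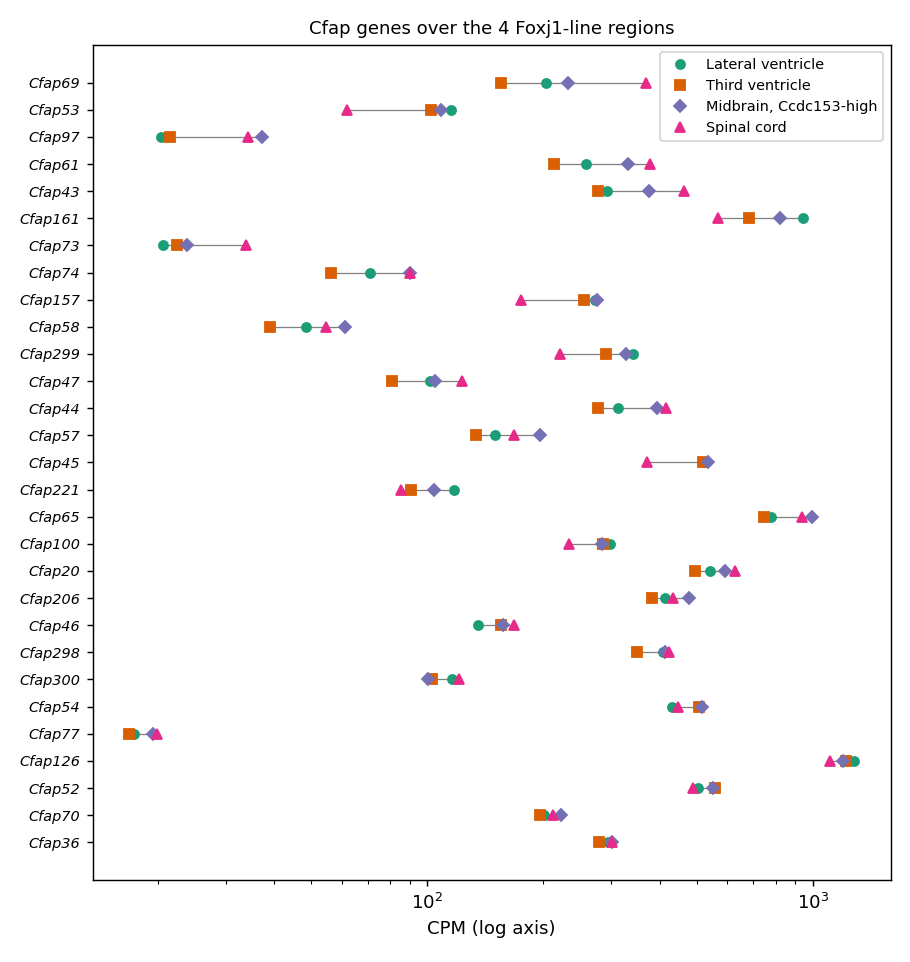
CPM (log axis) of the 29 Cfap genes in lateral ventricle cells, those of the third ventricle, the Ccdc153-high midbrain cells and the spinal cord of the Foxj1 line, 1 sample each, ordered by the highest over the lowest. Only Cfap69 spans more than 2-fold, from 155 CPM in the third ventricle to 369 CPM in the spinal cord.

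Other cilium genes were read from 9 fixed lists without Cfap symbols, of which 151 genes passed the filter in the Foxj1 midbrain sample: 39 stood at least 2-fold lower in Sspo-high cells (25.8%, beside 14.6% of all genes), 6 at least 2-fold higher (3.97%, beside 18% of all genes) and 3 under 10% (1.99%, beside 3.98% of all genes). edgeR called 0 genes of any list in either direction. The median ratio was 74.5% for the central apparatus (2 of 13 genes at least 2-fold lower), 59.7% for the nexin-dynein regulatory complex (3 of 12) and 56.5% for the radial spokes (5 of 13). It was 59.7% for the dynein arms (9 of 22), 57.9% for dynein arm assembly (4 of 11) and 55.7% for proteins inside the microtubules (7 of 16). Of the lists that also serve primary cilia, intraflagellar transport had a median of 71.4% (2 of 24) and the primary cilium and basal body one of 80.5% (3 of 24). The median of the ciliogenesis factors was 105.2% in the Foxj1 line, with 4 of 16 at least 2-fold lower, but 36.8% in the Nkx2-2 line. There 10 of 17 stood at least 2-fold lower (25.4% of all genes) and 6 under 10% (10.7% of all genes). The Nkx2-2 values rest on 12 Sspo-high cells, and some of these genes were scarce, such as E2f4 at 17.1 CPM in Ccdc153-high cells. The medians of the other 8 lists in the Nkx2-2 line were 49.6% to 79.6%.

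**Figure D5:**
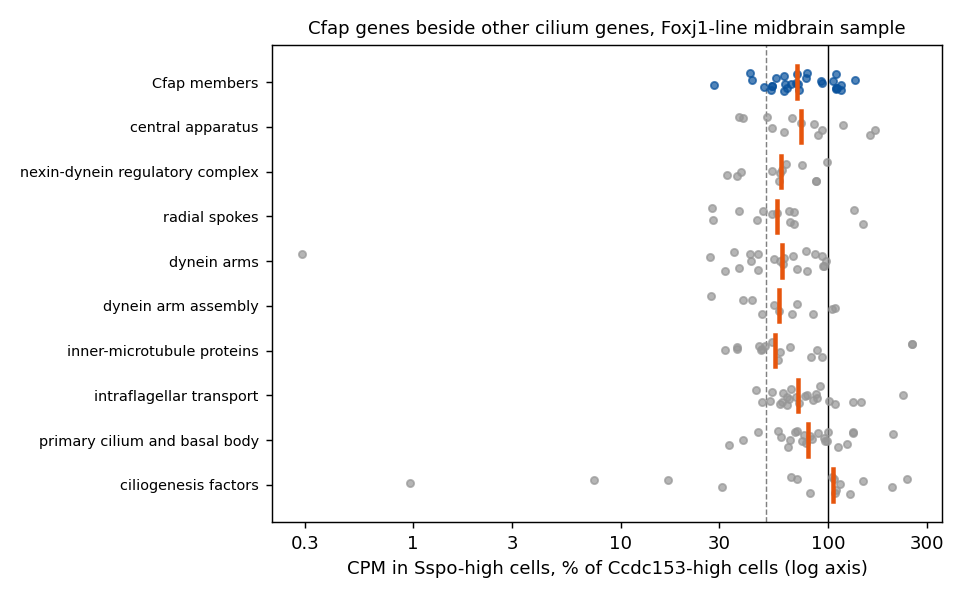
CPM in Sspo-high cells as a percentage of Ccdc153-high cells (log axis) for the 29 Cfap genes and for the genes of 9 fixed cilium lists in the Foxj1 midbrain sample, 1 point per gene, with the list's median as a bar. The Cfap genes range from 28.3% to 134.9%, whereas Dnah3 among the dynein arms and Ccdc78 and Myb among the ciliogenesis factors lie under 10%.

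The 3 genes under 10%, a smaller share than that of all genes, were the lowest of their lists. Dnah3, a heavy chain of an inner dynein arm, stood at 193 CPM in Ccdc153-high and 0.563 CPM in Sspo-high cells of the Foxj1 line, and at 100 and 0 CPM in the Nkx2-2 line. Ccdc78, a protein of the deuterosome that amplifies centrioles, stood at 270 and 2.60 CPM, and Myb, a transcription factor of multiciliated cell differentiation, at 159 and 11.8 CPM. Each of the 3 was lower in all 7 blocks.

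Within the lists the extremes in the Foxj1 line were as follows. In the Nkx2-2 line 17 of the 18 lowest genes and 12 of the 18 highest stood on the same side of 100%. Of all genes that passed in both samples, 29.1% were lower in both, 41.3% higher in both and 29.6% opposite. The count for the highest genes was thus near the share of all genes. In the central apparatus Ak8 (37.2%) and Ak7 (38.7%) were lowest and Lrriq1 (159.4%) and Spag17 (167.7%) highest, and in the nexin-dynein complex Fbxl13 (32.6%) and Iqca (36.5%) were lowest and Gas8 (87.9%) and Ccdc40 (99.0%) highest. In the radial spokes Rsph9 (27.6%) and Morn3 (28.0%) were lowest and Dnajb13 (133.9%) and Iqub (147.6%) highest. Among these lists only the radial spokes held genes both as low as Cfap100 (28.3%) and as high as Cfap43 (134.9%). The central apparatus reached the upper level only, and the nexin-dynein complex reached neither.

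Besides Dnah3, Dnali1 (27.1%) was the lowest dynein arm gene, and Ccdc114 (96.1%) and Armc4 (97.6%) were highest; in dynein assembly the range ran from Ruvbl2 (27.2%) and Dnaaf1 (38.9%) to Dnaaf3 (104.3%) and Dnaaf2 (108.5%). Dnaaf1 went the other way in the Nkx2-2 line, at 71.8 CPM in Ccdc153-high and 146 CPM in Sspo-high cells (203.3%), and Ccdc114 and Armc4 stood at 154.9% and 128.1% there. Among proteins inside the microtubules Ribc2 (31.9%) and Ribc1 (36.3%) were lowest and Tekt5 (253.4%) and Tekt2 (254.1%) highest, but in the Nkx2-2 line Tekt5 stood at 7.97 CPM in Ccdc153-high cells and had 0 reads in Sspo-high cells. Intraflagellar transport ran from Ift46 (45.1%) and Dync2li1 (48.3%) to Ift122 (144.9%) and Ttc21b (230.5%), and the primary cilium list from Nek1 (33.5%) and B9d1 (38.9%) to Bbs4 (132.6%) and Ahi1 (206.1%). Ccdc40, Ttc21b and Bbs4 were the remaining highest genes that stood on the other side of 100% in the Nkx2-2 line, at 125.6%, 75.1% and 68.6%, of which Ttc21b rested on under 1 CPM in either class. Rfx5 (203.9%) and E2f5 (240.9%) were the highest ciliogenesis factors. Upstream transcription factors of that list stood at unlike levels: beside Myb at 7.42%, Trp73, which drives multiciliated differentiation in mice, stood at 30.9%, Rfx2 at 66.7%, Foxj1 at 70.7% and Rfx3 at 107.6%. In the Nkx2-2 line Myb had 0 reads in Sspo-high cells, and Trp73 stood at 36.8%, Rfx2 at 88.3%, Foxj1 at 81.7% and Rfx3 at 51.3%. Trp73, Rfx2, Foxj1 and Rfx3 were chosen after their values were seen.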

How the data were processed

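Single cells of 5 samples, 1 per group, were sequenced by Smart-seq2, per the labels' protocols. The authors deposited raw counts of reads, as whole numbers for each gene in each cell, and a table of log2 values. The deposited log2 values equalled log2 of the count over 1 size factor per cell (0.0875 to 6.00), plus 1, within 0.01 for 100% of values. STAR 2.3.1o, Seurat 3 and mm10 come from the submitters' processing notes. The counting tool, the annotation and whether strand was used are not given in the sources used here. The prefix of a column's name gave its sample, and 0 columns had none. No doublet caller was run, since a well was sorted to hold a single cell, and 1 alternative dropped the 2% of cells that had the highest numbers of detected genes.

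Read counts were added up within each class and scaled to CPM, with exact Poisson 95% intervals. Shares of cells were counted after thinning each cell to 100000 reads, which left out no cell, with exact Clopper-Pearson 95% intervals. Without molecular identifiers several reads can stem from the same molecule, so intervals cover counting error only, and cells and blocks of 96 cell numbers were not treated as replicates. A gene passed with a mean of 5 CPM over the 2 classes compared. Ccdc153, Sspo and Mog, which made the split, were left out of the shares over all genes.

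Class sums of the 2 midbrain samples were tested with edgeR 4.0.16 (quasi-likelihood, TMM, sample as a block, Benjamini-Hochberg at 0.05), with DESeq2 1.42.0 as an alternative, in R 4.3.3; other steps used Python 3.11.15 with pandas 2.3.3 and scipy 1.17.1. The edgeR step was tested on simulated data. With the sample as a block, its p-values rest on how the difference between the classes varied between 2 samples, each of pooled mice of 1 line. These samples also differ in Cre line, reporter and sex, and the spread between mice was not measured.

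Named were all members at 50% or more, the 8 with the lowest ratio, the 3 with the highest CPM per kilobase, the 5 that differed most over regions, and the 2 lowest and 2 highest genes of each fixed list. Members, lists and alternatives were chosen with earlier results of these data known. Gene positions and exon lengths came from GENCODE vM21 on GRCm38 and promoters from RefSeq on GRCm38.p6.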

Additional observations from a re-analysis of the deposited data

Results flagged for a closer look

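For 7 members the ratio of the class sums lay on one side of 100% in the Foxj1 line midbrain sample and on the other in the Nkx2-2 line sample, 1 sample each, so the difference was not tested. Opposite directions were also seen in 29.6% of all genes. Lower in Sspo-high cells of the Foxj1 line but higher in those of the Nkx2-2 line were Cfap61 (log2 ratio -0.59 and 0.48), Cfap97 (-0.51 and 1.89) and Cfap69 (-0.10 and 0.26). Cfap97 rested on few reads, at 5.21 CPM in the Ccdc153-high cells of the Nkx2-2 line, and its Foxj1 blocks ran from 6.14% to 196.7%. Higher in the Foxj1 line but lower in the Nkx2-2 line were Cfap36 (0.08 and -0.12), Cfap77 (0.13 and -1.08), Cfap73 (0.14 and -0.30) and Cfap45 (0.21 and -0.22). The Foxj1 blocks of these members went both ways: 6 of 7 were lower for Cfap61 and Cfap97, 4 of 7 for Cfap69 and Cfap73, and 2 of 7 for Cfap36, Cfap45 and Cfap77. The direction of Cfap36, Cfap73 and Cfap77 in the Foxj1 line also turned with the scaling. The Nkx2-2 line values came from 19 and 12 cells.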

How the results depend on the processing

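The number of members at least 2-fold lower in Sspo-high cells, 4 by CPM, was 7 with TMM factors and 7 by the authors' normalized values. It was 10 in the Nkx2-2 line sample, with or without its cells under 1000 CPM of summed members. Leaving out these cells was chosen after the data were seen. Of all genes, 14.6% were at least 2-fold lower by CPM and 25.4% in the Nkx2-2 line sample. This share was not computed for TMM factors or the authors' values. The cause of the unlike counts was not tested. Leaving out each block of 96 cell numbers in turn gave 3 to 5 members at least 2-fold lower, 24 to 26 at 50% or more, and a median log2 ratio of -0.55 to -0.41. DESeq2 called 15 members lower and 1 higher where edgeR called 0 and 0. The fit with no replicate block, which leaves out the pairing of classes by sample, also called 0 lower and 0 higher. Leaving out a midbrain sample leaves edgeR no residual degree of freedom, so no test was had there. Members under 10% were 0 and members at 50% or more were 19 to 26 under every alternative run. Members within 2-fold over the 4 regions, 28 by CPM, were 27 at a mean of at least 20 CPM and 28 under the other 6 alternatives. Depth was no limit for class sums, but the Nkx2-2 line rested on 12 Sspo-high cells.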
